A study of Mus musculus with 76 samples.

Results

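The conjugating enzymes described here are the genes whose symbols start with Ugt1, Ugt2 or Ugt3, with Sult and a digit, or with Gsta, Gstk, Gstm, Gsto, Gstp, Gstt, Gstz or Mgst, with entries ending in -ps left out. They numbered 53 genes, of which 13 were UDP-glucuronosyltransferases (UGTs), 17 cytosolic sulfotransferases (SULTs) and 23 glutathione S-transferases (GSTs). The liver table held 52 of them among 16775 entries, and the visceral white adipose tissue (WAT) table held 28 among 18964. RNA came from female mice with free access to food, carrying either an edited Fnip2 gene on both chromosomes (Fnip2 C/C) or the unedited gene (Fnip2 T/T). The edit, made with CRISPR/Cas9 in C57BL/6 embryos, places a T-to-C change in the 3′UTR of Fnip2 together with a G-to-C change that removes the PAM, so that both changes came together, and no source gives the ages of these mice. Each genotype gave 5 livers, Fnip2 C/C gave 4 and Fnip2 T/T 5 WAT samples, and 6 mice gave both tissues. The libraries (QuantSeq 3′ FWD) read the 3′ ends of poly(A) transcripts on the sense strand, and the runs of a library were combined in the tables.

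Conjugation is the second phase of the disposal of drugs, toxins, steroids, bilirubin and bile acids. UGTs sit in the endoplasmic reticulum and transfer glucuronic acid from UDP-glucuronate, SULTs transfer sulfate from PAPS in the cytosol, and GSTs add glutathione to electrophiles, among them aldehydes left by lipid peroxidation. Most GSTs are soluble, Gstk1 is found in mitochondria and peroxisomes, and the Mgst proteins belong to an unrelated membrane-bound family. The liver is the main site of all of these reactions, and in adipose tissue GSTs such as Gsta4 are known for handling the lipid aldehyde 4-hydroxynonenal. Many GST genes are induced by the transcription factor NRF2 (encoded by Nfe2l2) through the antioxidant response element, whose core reads TGACNNNGC.

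Promoters were searched for this core because GSTs were 6 of the 8 members called in WAT. They were also 18 of the 21 members tested there, and 33.3% of them were called. RefSeq promoter windows (GRCm38.p6, from 250 bases before to 50 after a start) matched 46 of the 53 members, and the core lay on either strand in 4 of them, all GSTs, which was 4 of 21 GSTs (19.05%) and 8.7% of the members matched, against 13.99% of all 27025 genes with a window. The windows of 30 bases below are read along the strand of the core, whose letters are in capitals, and they are shown because 3 of the 4 genes passed the test in WAT. In that test 38.1% of the members and 32.1% of all genes tested were called, and a link between the core and the calls was not tested.
Gsta3 (chr1:21240454-21240483, plus strand): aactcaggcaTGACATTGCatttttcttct
Mgst1 (chr6:138140461-138140490, minus strand, opposite to the gene): accccgcctccTGACCGTGCcaagccccgc
Gstm5 (chr3:107895802-107895831, plus strand): caccgcccacTGACCACGCggagggcgggt
Gstm7 (chr3:107931724-107931753, minus strand): tctgaagaccTGACAAAGCgaagccaatcc
The first base of the core lay 121 bases before the start in Gsta3, 42 in Gstm5 and 129 in Gstm7, and in Mgst1 the core began, in gene orientation, 56 bases before it. Among these genes, Gsta3 and Mgst1 were lower and Gstm5 higher in Fnip2 C/C WAT, so genes with the core moved in both directions.

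The deposited values are normalized counts, that is, reads divided by 1 factor per library, and reads recovered from them came to between 4180209 and 6277644 per WAT library and between 5583041 and 7523200 per liver library. Without molecular identifiers these are reads and not independent molecules. Fnip2 itself lay between 14.1 and 30.9 normalized counts in Fnip2 C/C WAT and between 14.5 and 42.6 in Fnip2 T/T WAT (log2 difference -0.27 with a standard error, SE, of 0.35, limma adjusted p = 0.58), and between 133 and 197 against 49.2 and 134 in liver (0.63, SE 0.23, adjusted p = 1.00). For Fnip2 in liver the unadjusted limma p was 0.0148 and the exact two-sided permutation p over 252 groupings was 0.0159. The lowest Fnip2 C/C liver (133.0) lay just under the highest Fnip2 T/T liver (134.0). Of all liver genes tested, 1.97% had an unadjusted limma p under 0.05. Gene counts carry no base at the edited position and so give no check of the genotype labels. The WAT library of Fnip2 C/C mouse 593 stood apart, with a summed count of 24881 on the 12 ovary markers present of 15 listed, against 188 to 395 in the other 8 WAT libraries, and the calls and counts that changed without it are given. In WAT, snoRNA genes took 0.0276% to 0.154% of reads in Fnip2 C/C, at most 0.0722% without mouse 593, and 0.00949% to 0.0196% in Fnip2 T/T, without overlap. Mitochondrial transcripts (10.6% to 18.8% against 13.3% to 18.8%) overlapped. Genes of ribosomal proteins (Rpl and Rps) took 4.55% of reads in mouse 593 and 1.57% to 2.38% in the other WAT libraries. The numbers of the RNA labels were even in every Fnip2 C/C and odd in every Fnip2 T/T WAT library, so this order and the genotype cannot be told apart in WAT.

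In liver, GSTs took the largest share of the reads, followed by UGTs and SULTs at similar levels. The share over the 10 livers lay between 0.539% and 0.682% for GSTs, between 0.0866% and 0.140% for UGTs and between 0.0769% and 0.109% for SULTs. In WAT the GST share was between 0.203% and 0.381%, the SULT share between 0.00767% and 0.0428% and the UGT share at most 0.00105%. The UGTs of the liver table were 7 Ugt2 genes, all on chromosome 5, 4 genes of the Ugt1 locus on chromosome 1, and Ugt3a1 and Ugt3a2 on chromosome 15.

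**Figure D1:**
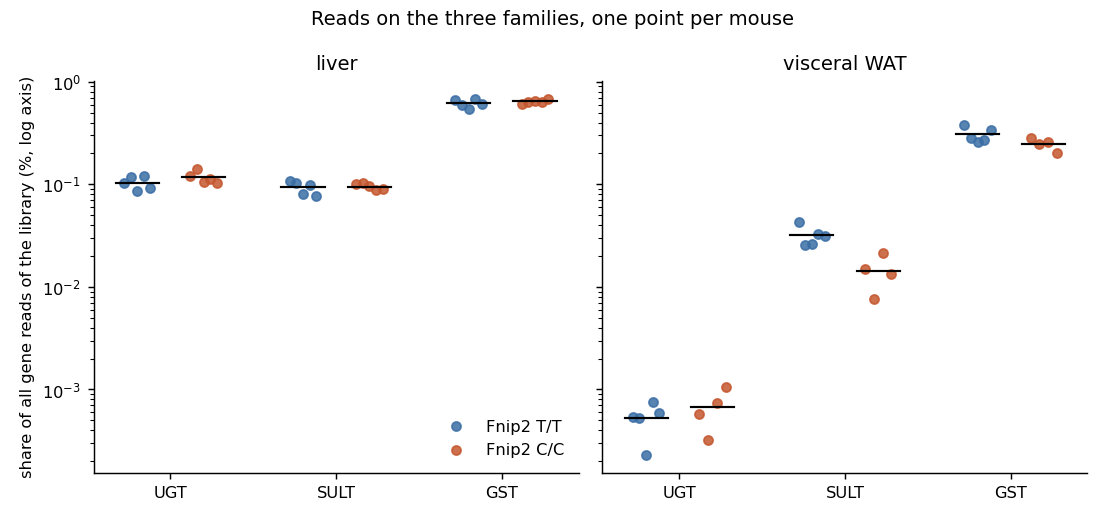
Share of all gene reads of each library (percent, log axis) on the UGT, SULT and GST genes in liver (left) and visceral WAT (right), with 1 point per mouse, Fnip2 T/T in blue and Fnip2 C/C in orange, and the group mean as a black line. UGTs fall from 0.0866% or more in every liver to 0.00105% or less in every WAT library, and the SULT share in WAT is lower in all 4 Fnip2 C/C libraries (at most 0.0213%) than in all 5 Fnip2 T/T libraries (at least 0.0257%). Sult1a1 holds a median of 95.0% of the WAT SULT reads, and Sult5a1 was higher in Fnip2 C/C (log2 difference 1.09).

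A few genes held most reads of each family. In liver, Gstm1, a mu class GST, held a median of 29.0% of the GST reads, Gsta3, an alpha class GST known for detoxifying the aflatoxin epoxide, 18.3%, and Mgst1, a membrane-bound GST and peroxidase, 12.4%. Gstm1 lay between 10481 and 16142 normalized counts, Gsta3 between 6417 and 9431 and Mgst1 between 3874 and 7010.1. Among the SULTs of the liver, Sult1a1, a phenol sulfotransferase, held a median of 57.6% of the reads (3234 to 3986 normalized counts), followed by Sult3a1 (10.2%) and the bile acid and steroid sulfotransferase Sult2a1 (8.07%). The liver UGT reads were spread more evenly, with medians of 21.3% for Ugt2b36, 20.5% for Ugt2b34 and 19.3% for Ugt2b1.

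Sult1a1 and Gstm1 were also among the leading genes of WAT, while others differed. Gstz1, the maleylacetoacetate isomerase of tyrosine breakdown, held a median of 35.2% of the GST reads, Gstm1 21.7% and the mu class Gstm2 13.3%. Sult1a1 held a median of 95.0% of the SULT reads of WAT and Sult5a1 4.77%. Sult1d1, the next by mean, had at most 9.41 normalized counts in any WAT library. The most abundant UGT entry, Ugt1a7c, had 6.70 to 19.8 normalized counts, and Ugt1a5 and Ugt1a6a had at most 11.9 and 28.1. Ugt2b34, one of the leading liver UGTs, was listed at 0 in 7 of the 9 WAT libraries and at most at 5.30 in the others.

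The 27 members in both tables were set side by side in CPM (recovered reads scaled to 1 common library total), without a test. The labels give a different RNA input for each tissue, so input and tissue cannot be told apart. For 15 of these members every liver lay above every WAT library, and for 10 the tissues overlapped. Gstm5 (28.9 to 59.6 CPM in WAT and 7.10 to 11.8 in liver) and Mgst2, a membrane-bound enzyme that can make leukotriene C4 (1.68 to 42.1 CPM in WAT and at most 0.296 in liver), lay higher in every WAT library.

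Not every member can be told from its relatives by reads at the 3′ end. In the last 400 bases of the coding transcripts of GENCODE vM21 (GRCm38), all 50-base stretches of Ugt1a1, Ugt1a5 and Ugt1a6a also occurred in other genes of the Ugt1 locus on chromosome 1, whose exons are shared at that end, and 50% of those of Ugt1a7c did. The share was 78.3% for Gstp1 and 63.1% for Gstp2, 55.7% for Gsta2, 66.1% for Sult2a2, 52.1% for Sult2a5 and 24.1% for Gstm1. Counts of these entries are therefore uncertain, and Ugt1a1, the bilirubin UGT, was listed at only 0.902 to 10.9 normalized counts in liver and Gstp1 at 31.7 to 76.5. Among the members that passed the test in WAT, the share was 0% for Gsta3, Gstk1, Gstm5, Mgst1 and Mgst2, 2.35% for Gstm2, 5.13% for Sult5a1 and 10.9% for Sult1a1. Antisense genes cover the 3′ ends of Gsta3 (Gm28836), Sult1a1 (Sgf29) and Sult5a1 (Gm20388), and whether reads were counted by strand is not given in the sources used here.

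In WAT, conjugating enzymes moved in both directions between the genotypes. Of the 21 members that passed the filter of a mean of 10 normalized counts, 8 were differentially expressed, with 5 lower and 3 higher in Fnip2 C/C (limma with Benjamini-Hochberg adjusted p under 0.05 over all genes tested). The lower genes were Gsta3, Sult1a1, Mgst2, Mgst1 and Gstk1, by 1.62- to 3.59-fold in the means, and the higher genes were Sult5a1, Gstm5 and Gstm2, by 1.62- to 2.25-fold. By family these were 6 of 18 GSTs and both SULTs tested, while the only UGT tested, Ugt1a7c, did not pass (log2 difference 0.06, SE 0.41, limma adjusted p = 0.919). Of all 12798 genes tested, 32.1% were called, 15.1% higher and 17.0% lower, and the share of members called (38.1%) is near that background. The median log2 difference of the members was 0.01 and that of all genes 0.02. The genotypes did not overlap for 5 of the 21 members, against 26.1% of all genes. In bulk WAT, fewer cells of a type and less RNA per cell cannot be told apart.

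**Figure D2:**
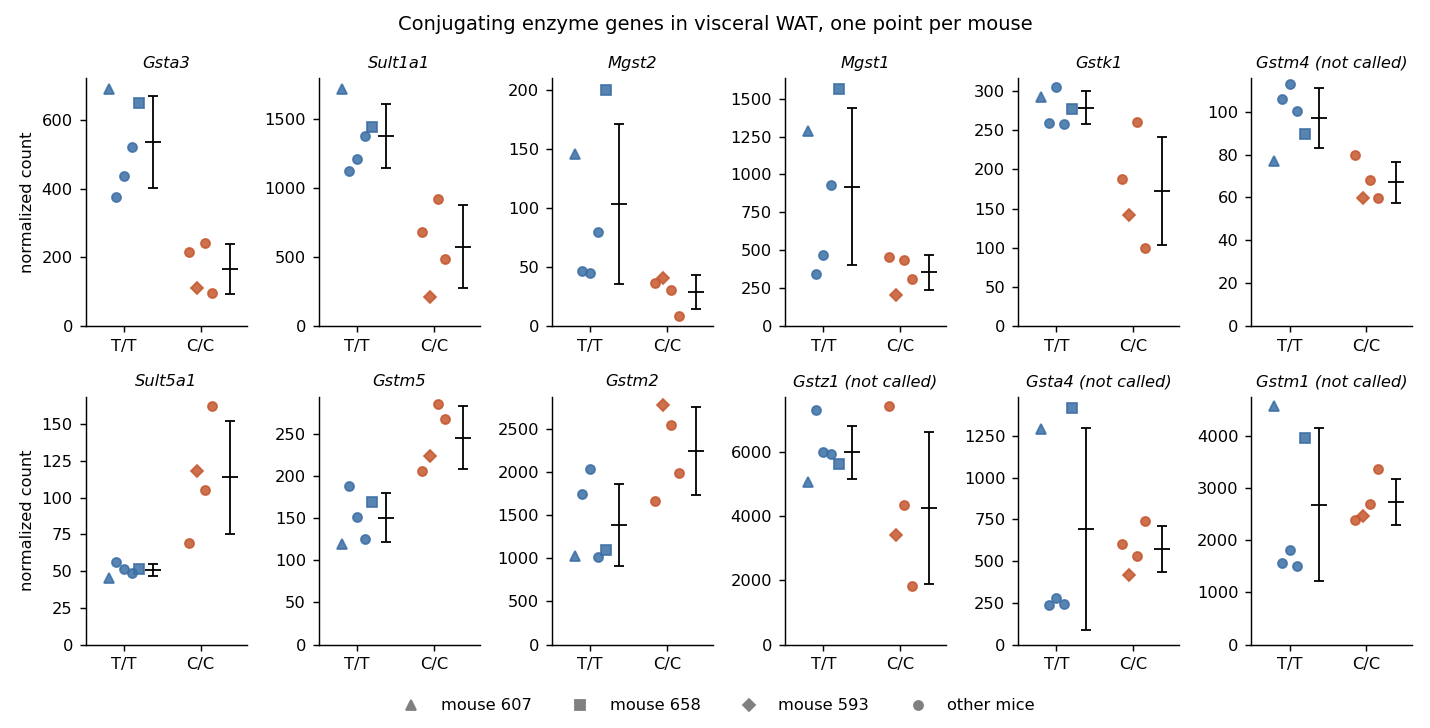
Normalized counts (linear axes from 0) of 12 conjugating enzyme genes in visceral WAT, with 1 point per mouse and the group mean ± SD as a black bar (Fnip2 T/T in blue, n = 5, and Fnip2 C/C in orange, n = 4), and with mice 607, 658 and 593 marked by shape. Every Fnip2 C/C point lies below every Fnip2 T/T point for Gsta3, Sult1a1 and Mgst2 and above it for Sult5a1 and Gstm5, whereas Gsta4 and Gstm1 are split within Fnip2 T/T, where mice 607 and 658 are highest.

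Gsta3 had the lowest p of all members. Its normalized counts were 215, 109, 241 and 96.0 in the Fnip2 C/C mice 590, 593, 599 and 638 and 692, 377, 438, 521 and 650.2 in the Fnip2 T/T mice 607, 608, 609, 657 and 658. The highest Fnip2 C/C library therefore lay well under the lowest Fnip2 T/T library. The means were 165 ± 73.2 (SD, n = 4) and 536 ± 135 (SD, n = 5), a log2 difference of -1.76 (SE 0.29, limma adjusted p = 0.00133), and the two-sided exact permutation p of 0.0159 was the smallest that 126 groupings can give. Without mouse 593 the difference was -1.61 (adjusted p = 0.00377).

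Sult1a1, in the same mouse order, had 681, 212, 919 and 485 in Fnip2 C/C and 1716, 1124, 1208, 1371 and 1443 in Fnip2 T/T. All Fnip2 C/C libraries were lower, and mouse 593 was the lowest of them. The means were 574 ± 299.6 (SD, n = 4) and 1372 ± 230.2 (SD, n = 5), a log2 difference of -1.43 (SE 0.34, limma adjusted p = 0.00769, exact permutation p = 0.0159). Without mouse 593 it was -1.01 (adjusted p = 0.00803).

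Both microsomal GSTs that were lower varied widely within Fnip2 T/T. Mgst2 had 36.5, 40.2, 30.4 and 8.20 in Fnip2 C/C and 146, 46.7, 44.7, 79.3 and 200.1 in Fnip2 T/T, a log2 difference of -1.76 (SE 0.52, limma adjusted p = 0.0232, exact permutation p = 0.0159). The groups did not overlap, but the gap between mouse 593 and mouse 609 was small beside the range in Fnip2 T/T. The call was lost without mouse 638 (limma adjusted p = 0.0667), 607 (0.0558) or 658 (0.0511), and without mouse 593 the difference was -1.99 (adjusted p = 0.0253). Mgst1 had 458, 207, 437 and 313 in Fnip2 C/C and 1288, 345, 471, 931 and 1566 in Fnip2 T/T, a log2 difference of -1.22 (SE 0.42, limma adjusted p = 0.0411, exact permutation p = 0.0635). Mouse 608 lay among the Fnip2 C/C libraries. The Mgst1 call was lost without mouse 593 (limma adjusted p = 0.115), 599 (0.052), 638 (0.108), 607 (0.0916), 657 (0.085) or 658 (0.0854). It was also lost with a pseudocount of 10 (limma adjusted p = 0.0504), with no filter on low values (0.0625) and with a term for mouse numbers under 610 (0.058). Mgst3, the other member of this family, lay between 19.7 and 52.0 in Fnip2 C/C and 30.1 and 50.9 in Fnip2 T/T.

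Gstk1 had 188, 141, 260.1 and 99.6 in Fnip2 C/C and 293, 259.8, 306, 258 and 277 in Fnip2 T/T. Only mouse 599 reached the lower edge of the Fnip2 T/T range, which was narrow. The log2 difference was -0.78 (SE 0.24, limma adjusted p = 0.0256, exact permutation p = 0.0476), and the call was lost without mouse 593 (limma adjusted p = 0.0563), 638 (0.0678) or 607 (0.054), or with library weights (0.0827).

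Sult5a1, a sulfotransferase whose substrate is not well known, had 69.4, 118, 105 and 163 in Fnip2 C/C and 45.1, 56.4, 51.4, 48.6 and 51.5 in Fnip2 T/T. The Fnip2 T/T libraries lay close together and all Fnip2 C/C libraries were above them. The log2 difference was 1.09 (SE 0.24, limma adjusted p = 0.00493, exact permutation p = 0.0159) and 1.06 without mouse 593 (adjusted p = 0.0125). The mu class GST Gstm5 had 206, 225, 286 and 268 in Fnip2 C/C and 119, 189, 152, 125 and 169.8 in Fnip2 T/T, a log2 difference of 0.71 (SE 0.19, limma adjusted p = 0.0135, exact permutation p = 0.0159). It did not overlap between the genotypes, and without mouse 593 the difference was 0.75 (adjusted p = 0.0193).

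Gstm2 had 1667, 2781, 2545 and 1992 in Fnip2 C/C and 1029, 1747, 2042, 1013.4 and 1096 in Fnip2 T/T. The groups overlapped, with mice 608 and 609 inside the Fnip2 C/C range. The log2 difference was 0.73 (SE 0.26, limma adjusted p = 0.0442, exact permutation p = 0.0794), and the call was lost without mouse 593 (limma adjusted p = 0.1), 599 (0.111), 638 (0.0651), 607 (0.103), 657 (0.104) or 658 (0.0963). It was also lost in edgeR (adjusted p = 0.061) and, in limma, with quantile normalization (adjusted p = 0.0701), scaling to the same total (0.0602) and a term for mouse numbers under 610 (0.0559). Over the fits that left out 1 mouse, the number of members called ranged from 4, without mouse 638, to 10, without mouse 590, and it was 5 without mouse 593, 607 or 658. The share of all genes called moved as well, to 23.8% without mouse 638, 33.3% without mouse 590, 29.6% without mouse 593 and 24.3% without mouse 607 or 658. The calls of Gsta3, Sult1a1, Sult5a1 and Gstm5 were kept in all of the 9 fits and in all 10 other settings.

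The mu class genes of the cluster on chromosome 3 did not move as one. Gstm5 and Gstm2 rose, whereas Gstm4, named here after its values were seen, lay just outside the threshold in the other direction, with 59.7 to 80.0 normalized counts in Fnip2 C/C and 77.1 to 113 in Fnip2 T/T (log2 difference -0.53, SE 0.19, limma adjusted p = 0.0527). It passed in edgeR (adjusted p = 0.0446) and DESeq2 (adjusted p = 0.0392), and in limma with scaling to the same total, with a minimum mean of 50 and without mouse 590 or 607. Gstm1 had a log2 difference of 0.18 (SE 0.34, limma adjusted p = 0.704), and its sign changed in edgeR. Gstm6 (12.1 to 47.7 normalized counts over the 9 libraries) and Gstm7 (22.3 to 164) did not pass, and the highest Gstm7 value was that of mouse 593.

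Gstz1, the GST with the most reads in WAT, had 7441, 3416, 4340.0 and 1838 in Fnip2 C/C and 5075, 7326, 5992, 5938 and 5638 in Fnip2 T/T. The Fnip2 C/C libraries reached from below to above all of Fnip2 T/T, and the difference did not pass (log2 difference -0.66, SE 0.33, limma adjusted p = 0.137). Without mouse 590, the highest library, it was -0.98 and passed (limma adjusted p = 0.0192). The theta class genes Gstt1, Gstt2 and Gstt3 and the omega class genes Gsto1 and Gsto2, which are clustered on chromosomes 10 and 19, had log2 differences from -0.43 to 0.26 with limma adjusted p of 0.402 or more.

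Gsta4 and Gstm1 were split within Fnip2 T/T WAT, a pattern noted after the values were seen. Gsta4 had 1290.0 and 1419 normalized counts in mice 607 and 658 and 236, 278 and 246 in mice 608, 609 and 657, with 418 to 741 in Fnip2 C/C between both sets. Gstm1 had 4589.6 and 3970.4 in mice 607 and 658, 1513 to 1807 in the other Fnip2 T/T mice and 2400.4 to 3380.3 in Fnip2 C/C. Mice 607 and 658 were the 2 highest of the 9 WAT libraries for 6 of the 21 members (Gsta3, Gsta4, Gstm1, Mgst1, Mgst2 and Sult1a1), and for 9.28% of all genes tested. The 6 include Gsta4 and Gstm1, from which these mice were picked. Both mice also had the WAT libraries with the most reads (5021236 and 6277644, against at most 4724912). The part of depth in the division was not tested. The summed count of 5 epithelial genes listed as cholangiocyte markers (Epcam, Krt7, Krt19, Spp1 and Sox9), of which 3 passed the filter, followed the same division. It was 685 in mouse 607, 743 in mouse 658 and at most 375 in the other WAT libraries, and its part in the division was not tested. The sum of the 10 mesothelial markers, which also include Krt19, did not follow it, with 1077 in mouse 607, 1215 in mouse 658 and 1403 in mouse 638. The genotype difference of Gsta4 was 0.18 (log2, SE 0.56), with a limma adjusted p of 0.828.

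Marker genes of cell types moved in WAT alongside these members. Of the 10 adipocyte markers, all tested, 7 were lower and 0 higher in Fnip2 C/C. Their summed counts ranged from 73936 to 232363 in Fnip2 C/C and from 112900.0 to 201573 in Fnip2 T/T. These sums rest largely on 1 gene, Cfd, which was not called and averaged 127997 in Fnip2 C/C and 85213 in Fnip2 T/T (log2 difference 0.52, SE 0.39). Adipoq, among the lower genes, averaged 9174 and 18964. Of the 10 hepatocyte markers, 7 were in the WAT table and 3 were tested, of which Alb and Cyp2e1 were lower, and the summed count was 212 to 677 in Fnip2 C/C and 838 to 2893 in Fnip2 T/T without overlap. Fgb, Cyp3a11 and Tat were not in the WAT table. Of the endothelial markers 3 of 7 were lower, and of the macrophage markers 4 of 9 were lower and 1 higher. The macrophage sum was 2943 to 6143 in Fnip2 C/C and 2851 to 4580 in Fnip2 T/T. Of 7 fibroblast and progenitor markers 2 were higher and 1 lower, and of 5 smooth muscle markers 1 was higher and 2 lower. Of 9 mesothelial and 2 lymphocyte markers tested, 0 were called. Over all genes tested, 15.1% were called higher and 17.0% lower. Without mouse 593, 5 adipocyte markers were lower, with a summed count in Fnip2 C/C of 170021 or more. Both hepatocyte markers then tested were lower, with a sum in Fnip2 C/C of 479 to 677. The smooth muscle counts were then 0 higher and 2 lower, and the macrophage sum reached 5475 in Fnip2 C/C. The numbers of endothelial, macrophage, fibroblast and progenitor, mesothelial and lymphocyte markers called were the same. The part of these cell types in the results on the conjugating enzymes was not tested.

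Genes that supply the conjugation reactions or carry their products away were taken from lists written for this purpose, and their counts stand against the 15.1% of all genes called higher and 17.0% called lower. Of the 11 glutathione supply genes tested in WAT, 4 were higher and 1 lower in Fnip2 C/C, and the highest ranked were Gclm, the modifier subunit of the rate-limiting synthesis enzyme (387 ± 74.3, SD, n = 4, against 220.4 ± 40.4, SD, n = 5, log2 difference 0.81, limma adjusted p = 0.0075), the 5-oxoprolinase Oplah (0.85, adjusted p = 0.0124) and the dipeptidase Dpep1 (0.87, adjusted p = 0.0135). Of the 8 genes for PAPS supply and desulfation, 3 were higher and 2 lower, among them the PAPS synthase Papss1 (log2 difference -0.86, limma adjusted p = 0.00379), the sulfate transporter Slc26a2 (0.87, adjusted p = 0.00486) and the phosphatase Bpnt2 (-0.74, adjusted p = 0.0125). For UDP-glucuronate supply 1 of 8 genes passed, Ugp2, which makes UDP-glucose (-1.18, limma adjusted p = 0.0246), and for the export of conjugates 1 of 6, the transporter Abcc5 (-1.07, limma adjusted p = 0.00816).

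Nfe2l2, which encodes NRF2, was itself higher in Fnip2 C/C WAT, at 646 ± 157 (SD, n = 4) against 342 ± 52.8 (SD, n = 5), a log2 difference of 0.90 (SE 0.19, limma adjusted p = 0.00458). Of the 10 regulators tested, Esr1 (-1.05, limma adjusted p = 0.00777) and Cebpb (-0.81, adjusted p = 0.0412) were lower. Known NRF2 targets outside the families went both ways, with 3 of 12 higher and 4 lower. Txnrd1, a thioredoxin reductase, was higher (log2 difference 1.41, SE 0.25, limma adjusted p = 0.00172), as was Gclm, while G6pdx, the first enzyme of the pentose phosphate pathway, was lower (-1.59, SE 0.32, adjusted p = 0.00336). Of 9 relatives of the families outside the rule, the leukotriene C4 synthase Ltc4s was lower (-1.37, limma adjusted p = 0.00683) and Clic1 (0.92, adjusted p = 0.0165) and Eef1g (0.72, adjusted p = 0.019) higher. Of 10 genes of other conjugating or detoxifying enzymes (such as Tpmt and Ephx2) 0 were called in limma, and 1, the acyl-CoA synthetase Acsm5, had an unadjusted p under 0.05. The median log2 difference was 0.41 over the glutathione supply genes and -0.46 over the NRF2 targets, against 0.02 over all genes. Without mouse 593, a view taken after the data were seen, the calls of Ugp2 (limma adjusted p = 0.0675) and Cebpb (0.0931) were lost, and the other genes named from these lists kept theirs, Nfe2l2 at a log2 difference of 0.94 (limma adjusted p = 0.00792), Txnrd1 at 1.35 (0.00471) and G6pdx at -1.52 (0.00959). The counts were then 3 higher and 1 lower for glutathione supply, 2 and 2 for PAPS, 3 and 3 for the NRF2 targets, and 1 and 1 for the 10 other enzymes.

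In liver, no conjugating enzyme was differentially expressed. Of the 52 members, 43 passed the filter and 0 were called in limma, edgeR or DESeq2, as for all 11710 genes tested (0.00% called). At an unadjusted limma p under 0.05 there were 2 members, Ugt2b1 and Ugt2b35, against 1.97% of all genes, and the genotypes did not overlap for 0 members, against 0.248% of all genes. The 43 log2 differences lay between -0.49 and 0.82, with standard errors between 0.11 and 0.87. They were above 0 for 34 members (79.1%) and for 51.8% of all genes, with a median of 0.10 against 0.01. All 11 UGTs tested, 9 of 12 SULTs and 14 of 20 GSTs lay above 0. Within the livers with odd RNA label numbers, several UGTs lay below 0, as given below.

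The UGTs with the lowest p were a pair from the cluster on chromosome 5, whose members glucuronidate steroids and bile acids. Ugt2b1 had 1736, 1733, 1480.4, 1574 and 1741 normalized counts in the Fnip2 C/C mice 590, 591, 592, 638 and 639 and 1577, 1312, 1079, 1481 and 902 in the Fnip2 T/T mice 607, 608, 657, 658 and 659. The groups overlapped in mice 592, 638, 607 and 658, and mouse 659 was lowest. The log2 difference was 0.41 (SE 0.14, unadjusted limma p = 0.0118, adjusted p = 1.00), with an exact permutation p of 0.0397 over 252 groupings, also two-sided. Ugt2b35, in the same order, had 288, 380.1, 329, 379 and 261 in Fnip2 C/C and 269, 277, 233, 333 and 195 in Fnip2 T/T, a log2 difference of 0.33 (SE 0.15, limma adjusted p = 1.00, exact permutation p = 0.0952). Ugt2b36 and Ugt2b34, the 2 UGTs with the highest means, had log2 differences of 0.19 (SE 0.14) and 0.11 (SE 0.15), with an adjusted p of 1.00 in limma.

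Gstt1, which acts on small halogenated compounds, had 2692, 2728, 3017, 3016 and 3303 in Fnip2 C/C livers, while Fnip2 T/T had 2489.6, 2412, 2602, 2970.3 and 2016. The groups overlapped through mouse 658, and the log2 difference was 0.25 (SE 0.12, limma adjusted p = 1.00, exact permutation p = 0.0397). Mgst3 had 19.8, 33.5, 33.7, 31.0 and 16.9 against 44.3, 34.4, 20.7, 40.6 and 52.9 (-0.49, SE 0.27, limma adjusted p = 1.00). Sult5a1, higher in Fnip2 C/C WAT, had 161, 118, 76.6, 83.8 and 196 against 156, 80.3, 53.6, 101 and 32.5 in liver, a log2 difference of 0.68 (SE 0.42, limma adjusted p = 1.00) with wide overlap.

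The abundant liver enzymes had small genotype differences. Sult1a1 averaged 3672 ± 324 (SD, n = 5) in the edited and 3629 ± 172 (SD, n = 5) in the unedited mice, and the log2 difference was 0.01 (SE 0.11). Gstm1, Gsta3 and Mgst1 had log2 differences of 0.04, 0.12 and 0.17, and none was called (limma adjusted p = 1.00). The female-predominant sulfotransferases varied widely. Sult2a1 ranged from 201 to 1083 in Fnip2 C/C and from 248 to 1439.6 in Fnip2 T/T, and Sult3a1 from 521 to 704 and from 153 to 1212.

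Livers of the same genotype also differed from each other across many members at once. How much of the variation lay within and between the genotypes was not tested. Mouse 657 was the lowest of the 10 livers for 18 of the 43 members and mouse 659 for 13, against 13.3% and 13% of all genes, and both are Fnip2 T/T. The median deviation of the members from their mean over the livers was -0.36 on the log2 scale in mouse 657 and -0.20 in mouse 659, while the median of all genes lay within 0.02 of 0 in every liver. The other 3 Fnip2 T/T livers had medians of 0.19 (mouse 607), -0.06 (mouse 608) and 0.20 (mouse 658), and the Fnip2 C/C livers lay between -0.08 and 0.15. Mouse 659 had low values of Sult3a2 (listed at 0), Sult2a7 (0.928), Sult3a1 (153) and Sult2a8 (115) together with the highest Gsta2 (181), Gsta4 (832) and Mgst3 (52.9) of all livers.

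**Figure D3:**
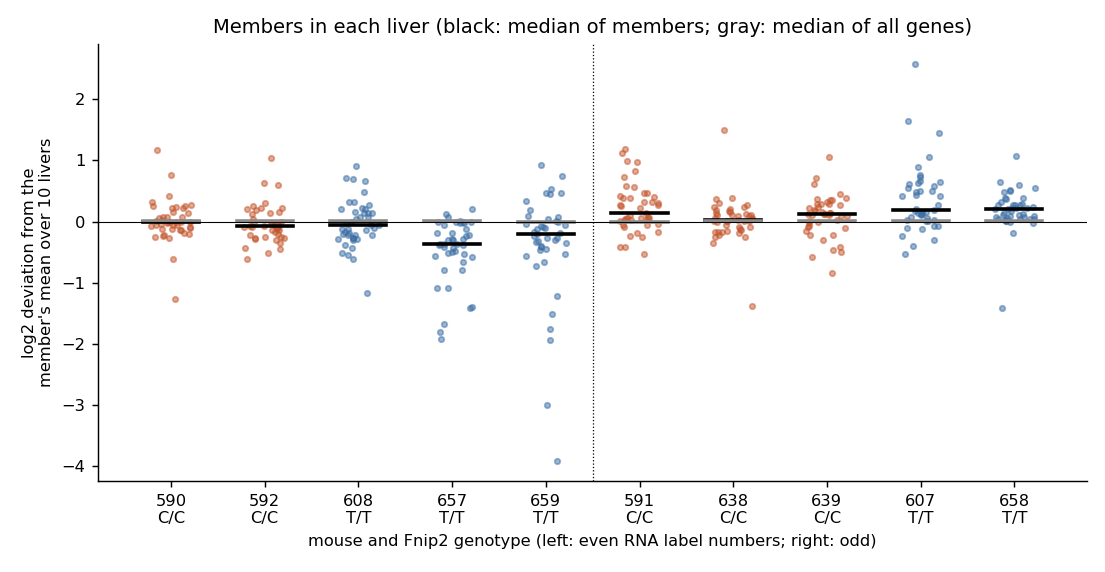
Log2 deviation of each of the 43 conjugating enzyme genes tested in liver from its mean over the 10 livers, by mouse, with even RNA label numbers on the left and odd on the right, Fnip2 C/C in orange and Fnip2 T/T in blue, the median of the members as a black line and that of all genes as a gray line. The members' median is at or below 0 in the 5 livers with even numbers, lowest in mouse 657 (-0.36), and above 0 in the 5 with odd numbers, while the gray lines stay near 0.

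In liver the numbers of the RNA labels cross the genotypes, with even numbers in 2 of the Fnip2 C/C livers and in 3 of those from Fnip2 T/T. The labels do not say what the numbers stand for, and this division was looked at after the values were seen. Members were higher at odd numbers in 40 of 43 cases (93.0%), against 51.6% of all genes, with a median log2 difference of 0.26 against 0.01. Every liver with an odd number lay above every liver with an even number for 5 members, against an overlap-free share of 0.999% over all genes. These were Gsta3 (7959 to 9431 against 6417 to 7764), Gstk1 (1183 to 1343 against 1025 to 1145), Gstt3 (2242 to 3411 against 1545 to 2174), Ugt2a3 (1271 to 1322 against 1024 to 1256) and Sult2a7 (19.8 to 42.4 against 0.928 to 18.2). Within the even numbers the genotype difference of Ugt2b1 was 0.56 and within the odd numbers 0.14 (log2), and with a term for the numbers it was 0.35 (unadjusted limma p = 0.0195, adjusted p = 1.00). All other UGTs tested also lay above 0 within the even numbers. Within the odd numbers Ugt2b36 (0.24), Ugt2b35 (0.16) and Ugt2b5 (0.13) did too. Below 0 there were Ugt2b37 (-0.46), Ugt3a2 (-0.26), Ugt1a7c (-0.22), Ugt1a5 (-0.11), Ugt2b34 (-0.08), Ugt1a6a (-0.04) and Ugt2a3 (-0.0006). With the term, the median difference of the members was 0.06, against 0.10 without it.

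The tissues were compared directly through the difference of the genotype effects. Of the 19 members tested in both tables, 4 passed this test, each with a lower effect in WAT, against 29.2% of all 10404 genes called and 17.7% called in this direction. For Gsta3 the effect was -1.76 in WAT and 0.12 in liver, a difference of -1.88 (SE 0.32, limma adjusted p = 0.00033). For Sult1a1 the effects were -1.43 and 0.01 (difference -1.44, SE 0.36, limma adjusted p = 0.00536), for Gstk1 -0.78 and 0.11 (-0.89, SE 0.25, adjusted p = 0.0122) and for Mgst1 -1.22 and 0.17 (-1.39, SE 0.48, adjusted p = 0.0344). For Sult5a1, with effects of 1.09 and 0.68, the difference of 0.42 did not pass (SE 0.48, limma adjusted p = 0.541), nor did those of Gstm5 (adjusted p = 0.0662) and Gstm2 (adjusted p = 0.0681). Mgst2 could not be compared, since it was below the filter in liver. Without mouse 593 the differences were -1.72 for Gsta3 (limma adjusted p = 0.000827), -1.03 for Sult1a1 (0.004) and -0.82 for Gstk1 (0.0249). The Mgst1 call was lost without any 1 of 8 mice, with limma adjusted p up to 0.102 without mouse 638, and without mouse 590 the number of members called rose to 7. In WAT the genotype effect cannot be told apart from the order of the RNA label numbers, which cross the genotypes in liver. Gsta3 and Gstk1 were higher in every liver with an odd number, and in WAT the odd numbers are those of Fnip2 T/T. The part of the label numbers in these differences was not tested.

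**Figure D4:**
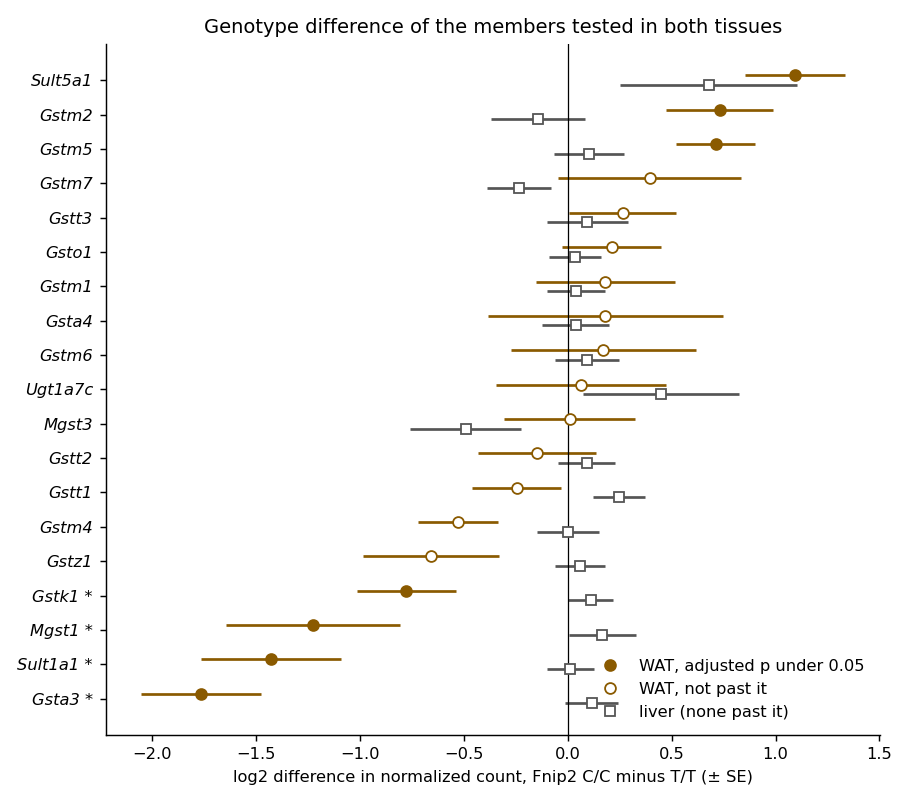
Log2 difference in normalized count, Fnip2 C/C minus Fnip2 T/T (points ± standard error), for the 19 conjugating enzyme genes tested in both tissues, in WAT (circles, filled where the limma adjusted p is under 0.05) and liver (squares), with asterisks at the genes whose effect differed between the tissues. Gsta3, Sult1a1, Mgst1 and Gstk1 are lower in Fnip2 C/C WAT and lie at 0.01 to 0.17 in liver. In WAT the genotype cannot be told apart from the order of the RNA label numbers.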

How the data were processed

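For each tissue the table the authors deposited holds a signal, normalized counts in which gene reads were divided by 1 size factor per library. The submitters' processing notes name FastQC 0.11.9, HISAT2, SAMtools 1.12, HTSeq, DESeq2 and the build GRCm39, without roles. Whole reads were recovered by undoing the division (deviation at most 1.8e-09). Samples were grouped by the genotype and mouse number in the labels, and 1 column that no label describes was left out.

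Values were tested as log2(value + 1) with limma 3.58.1 (R 4.3.3, trend and robust options, genotype as the only term) over genes with a mean of at least 10, with Benjamini-Hochberg adjustment over all genes of a tissue, and the tissues were compared by an interaction contrast over all 19 libraries. Fold changes on this scale understate those of low genes. Single members also had an exact two-sided permutation test. The fits were tested on simulated data. Alternatives were other pseudocounts, filters and scalings, library weights, a mouse number term, edgeR 4.0.16 and DESeq2 1.42.0 on recovered reads, and each mouse left out. A term for even against odd RNA label numbers in liver was added after seeing the data.

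Members and lists were chosen with earlier results of these data known. Named were all members called in WAT, the 5 lowest p in liver, the 3 most abundant of each family per tissue, members called in the interaction, at most 3 called genes per list in WAT, and Fnip2, with exceptions marked. Positions are from GRCm38 annotation and promoter sequences from RefSeq GRCm38.p6, which is not the authors' build. The 6 mice with both tissues pair the tissues, and the deviations of their 2 libraries from the group means correlated between -0.20 and 0.16 across genes.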

Additional observations from a re-analysis of the deposited data

Results flagged for a closer look

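The genotype effect differed between WAT and liver, by a limma test of the difference itself, for 4 members. The difference (WAT minus liver, log2) was -1.88 for Gsta3, -1.44 for Sult1a1, -1.39 for Mgst1 and -0.89 for Gstk1. The WAT part of each difference cannot be told apart from the order of the RNA label numbers. No mouse lay far from the rest of its group for any of the named members tested, in 48 sets of 4 or 5 values, where chance marks about 1 in 20.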

How the results depend on the processing

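The number of members called in WAT, 8, lay between 6 and 9 in the 10 other settings and between 4 and 10 when 1 mouse was left out. In liver it was 0 in limma, edgeR and DESeq2 and in every alternative run. For the difference between tissues it was 4, with a range of 3 to 7 when 1 mouse was left out. With the mouse number as a replicate block, which pairs the tissues of the 6 shared mice, the count was also 4, with Gsta3, Sult1a1, Gstk1 and Mgst1 called at limma adjusted p of 0.000555, 0.00738, 0.0162 and 0.0414, and the block changed no other call among the members. The sign changed under at least 1 alternative for 8 of the 21 members tested in WAT, 21 of 43 in liver and 7 of 19 in the difference between tissues, and 0 of these were called. Their main differences reached 0.43 in size in WAT (Gsto2) and 0.82 in liver (Sult3a2). Among the members named by rule, these were in WAT Ugt1a7c with scaling to the same total (-0.0074) and edgeR (-0.0056), with a range of -0.0952 to 0.2683 when 1 mouse was left out (below 0 without mouse 599 or, at -0.0908, 609), and Gstm1 with edgeR (-0.005). In liver, they were Sult1a1 with quantile normalization (-0.0087; -0.0173 to 0.0582 with 1 mouse left out), Sult3a1 with edgeR (-0.0759) and DESeq2 (-0.0733; -0.2732, without mouse 659, to 0.4709), Sult2a1 when mouse 638 or 607 was left out (-0.5948 to 0.039), and Gstm1 with quantile normalization (-0.0001; -0.0437 to 0.106). The cause of these changes was not tested. Entries with few reads, such as Ugt1a7c in WAT with 6 to 20 reads per library, have wide errors.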
